A study of Mus musculus with 12 samples.

Results

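The genes described here are 50 genes of the cell cycle and of DNA replication, 21 that act in DNA replication, 25 that act in mitosis and 4 that control G1, the phase before replication. They were taken as a named list, and each was read from the array row whose single gene symbol is the member, with the row of the highest mean where a gene has several. Of the 50 genes 48 were measured in this way, 20 of the replication genes, 24 of the mitosis genes and all 4 G1 control genes, among 41345 transcript clusters (the gene-level rows of the array) on 12 arrays. Ccnb1, which encodes cyclin B1, and Ccne2, which encodes cyclin E2, were not analysed here.

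The arrays carried RNA of CD4+YFP+ regulatory T (Treg) cells, the T cells that hold back immune responses and depend on the transcription factor Foxp3, isolated by flow sorting of mouse spleen and lymph nodes. YFP and the Cre recombinase are made together from a changed Foxp3 allele, so that floxed genes are lost in the cells that express Foxp3. The groups were Foxp3Cre/+ and Foxp3Cre/+Lkb1f/f, labelled female and set up to ask what the kinase Lkb1 does in Treg cells, and Foxp3Cre and Foxp3CreTgfbr2 f/f, labelled male and set up to ask the same of the TGF-β receptor subunit TGF-βR2. There were 3 arrays, called biological replicates by the labels, in each of the 4 genotypes. All 4 genotypes carry the Cre allele, and Foxp3 lies on the X chromosome, so females of both Foxp3Cre/+ genotypes also hold Treg cells that use the intact allele, which the sort leaves out. Neither the age of the mice nor whether an array holds 1 mouse or a pool is stated in the labels or the methods.

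A cell that starts to divide passes a G1 checkpoint at which D-type cyclins with Cdk4 and Cdk6 and cyclin E with Cdk2 release E2F transcription factors, while the inhibitors p21 (Cdkn1a) and p27 (Cdkn1b) hold these kinases back. E2F factors raise the genes of replication, among them the Mcm2 to Mcm7 helicase, its loaders Cdc6 and Cdt1, and the enzymes that make nucleotides. The genes of mitosis are switched on later, through elements that bind the MuvB, B-Myb and Foxm1 complexes, and their RNA is found mainly in cells in G2 and M. In bulk RNA such as this, fewer dividing cells and less RNA per dividing cell cannot be told apart.

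The 2 classes differ in the letters of their promoters. RefSeq gives a promoter window, 250 bases before to 50 bases after the start of the gene, for 40 of the 50 members. Shown are 5 that were picked for the contrast between array sets described below. Mcm5 and Mcm6 of replication were not called lower there, and Mki67, Cdk1 and Top2a of mitosis were. Each line is the 200 bases before the start, 5′ to 3′ on the strand of the gene, in build GRCm38.p6, with capitals for the words TTTCGCGC, TTTGGCGC, TTTCCCGC and TTTGCCGC, known as E2F words, and for TTTGAA, known as the cell cycle homology region, read on either strand. The stretches lie at chr8:75109309-75109508, plus strand (Mcm5), chr1:128359706-128359905, minus strand (Mcm6), chr7:135716380-135716579, minus strand (Mki67), chr10:69352913-69353112, minus strand (Cdk1) and chr11:99024190-99024389, minus strand (Top2a).
Mcm5: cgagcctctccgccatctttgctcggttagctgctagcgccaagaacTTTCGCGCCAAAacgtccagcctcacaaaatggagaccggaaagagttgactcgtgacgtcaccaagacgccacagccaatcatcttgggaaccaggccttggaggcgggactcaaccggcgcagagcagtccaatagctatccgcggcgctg
Mcm6: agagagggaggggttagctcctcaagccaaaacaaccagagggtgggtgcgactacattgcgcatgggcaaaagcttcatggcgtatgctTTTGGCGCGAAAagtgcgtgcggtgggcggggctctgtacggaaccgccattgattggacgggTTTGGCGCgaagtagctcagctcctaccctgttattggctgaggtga
Mki67: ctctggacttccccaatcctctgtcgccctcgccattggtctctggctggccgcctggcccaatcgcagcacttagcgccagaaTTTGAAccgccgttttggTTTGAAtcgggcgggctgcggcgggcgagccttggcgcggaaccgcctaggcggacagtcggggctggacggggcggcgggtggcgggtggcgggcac
Cdk1: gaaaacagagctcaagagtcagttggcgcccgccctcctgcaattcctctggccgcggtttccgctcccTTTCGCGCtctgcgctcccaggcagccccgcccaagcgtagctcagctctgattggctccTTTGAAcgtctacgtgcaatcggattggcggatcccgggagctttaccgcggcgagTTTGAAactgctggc
Top2a: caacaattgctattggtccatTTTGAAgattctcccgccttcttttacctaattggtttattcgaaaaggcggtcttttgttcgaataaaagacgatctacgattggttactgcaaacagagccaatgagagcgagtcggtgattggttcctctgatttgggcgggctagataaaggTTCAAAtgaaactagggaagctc
In Mcm5 a pair of E2F words, on opposite strands, overlap 153 and 149 bases before the start. Mcm6 has 3 of them, 2 overlapping at 110 and 106 bases and 1 at 47 bases. TTTGAA stands 116 and 98 bases before the start of Mki67, 71 and 15 bases before that of Cdk1, and 179 and 23 bases before that of Top2a, the last on the other strand. Cdk1 has an E2F word as well, 131 bases before its start.

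Over the whole 300-base windows, an E2F word was found in 7 of 17 replication genes (41.2%) and in 1 of 20 mitosis genes (5.0%), against 744 of 32851 windows of all genes (2.26%). TTTGAA was found in 14 of 20 mitosis genes (70.0%) and 3 of 17 replication genes (17.6%), against 17.9% of all windows. The word CCAAT, which binds the factor NF-Y, was common to both classes, in 16 of 20 mitosis and 12 of 17 replication genes, against 37.4% of all windows. Of the mitosis genes called lower in the comparison of array sets below, 13 of 17 with a window held TTTGAA, and of those measured but not called 1 of 2. Birc5 and Nusap1, which had the largest differences there, held none, nor did Bub1 and Cenpe. A match is a description of the letters, and its absence from a window says nothing of the factor.

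The log2 values of each array were used minus the median of that array. The medians of the values as deposited fell into 2 sets. They ran from 5.48 to 5.6 on 8 arrays, with 2 of each genotype, and from 6.3 to 6.33 on the other 4, with 1 of each. They are called here the lower-intensity and the higher-intensity arrays. The division is at a median of 6 and is drawn from the data, and the labels name no batch. The higher-intensity arrays are those labelled replicate 3 of Foxp3Cre/+, Foxp3Cre/+Lkb1f/f and Foxp3Cre, and replicate 1 of Foxp3CreTgfbr2 f/f.

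The same 4 arrays went against their labelled sex. Xist, the RNA of the inactive X chromosome, lay 4.37 to 5.20 above the array median on the lower-intensity arrays labelled female, and at -0.999 and -1.24 on the 2 higher-intensity arrays labelled female. Among arrays labelled male, Xist was at -0.93 to -0.40 on the lower-intensity and at 4.54 and 4.70 on the higher-intensity arrays, and the Y-linked Eif2s3y ran the opposite way on all 12. The sources used here do not give the floxed exons, so the probes of the targeted genes may lie outside them. On the lower-intensity arrays Stk11, which encodes Lkb1, was at 2.96 and 2.90 in Foxp3Cre/+ and 2.68 and 2.33 in Foxp3Cre/+Lkb1f/f, and Tgfbr2 was at 3.04 and 2.71 in Foxp3Cre and 2.51 and 2.31 in Foxp3CreTgfbr2 f/f. Where the gene was not targeted, the lower-intensity arrays also varied. Tgfbr2 was at 2.78 and 2.78 in Foxp3Cre/+ and 3.14 and 2.38 in Foxp3Cre/+Lkb1f/f. Stk11 was at 3.18 and 2.80 in Foxp3Cre and 3.03 and 3.33 in Foxp3CreTgfbr2 f/f. Among the 4 higher-intensity arrays Stk11 was highest (3.27) and Tgfbr2 lowest (2.71) on the array labelled Foxp3Cre/+Lkb1f/f. Stk11 was lowest (2.78) and Tgfbr2 highest (3.55) on the array labelled Foxp3CreTgfbr2 f/f. Every genotype named below is the labelled one. Whether the labels of these 4 arrays are right was not tested, and a difference over all arrays mixes genotypes if they are not. Differences between genotypes are therefore also given over the 8 lower-intensity arrays.

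Markers of Treg identity (Foxp3, Il2ra, Ctla4, Ikzf2, Tnfrsf18, Cd4 and Cd3e) averaged 4.98 to 5.31 above the array median on the lower-intensity and 5.32 to 5.37 on the higher-intensity arrays, and none of the 7 lay below it. Markers of other cells differed between arrays. Those of macrophages (9 of 9 measured) averaged 2.11, 4.39 and 0.82 in Foxp3Cre/+, 1.48, 1.93 and 0.999 in Foxp3Cre/+Lkb1f/f and 0.21 to 0.80 on the 6 other arrays. B cell markers (7 of 8) averaged -0.55 to -0.21 on the lower-intensity and -0.27 to 1.60 on the higher-intensity arrays, and neutrophil markers (7 of 7) -1.21 to -0.97 and -0.68 to 0.51. Markers of erythroblasts (5 of 12), which also divide, and of plasma cells (6 of 6) averaged between -0.51 and 0.23.

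Members were called between the intensity sets and in no comparison of labelled genotypes. Mitosis genes were lower on the higher-intensity arrays by a median of 1.03 on the log2 scale, and 20 of 24 were called lower by limma at an adjusted p under 0.05, against 18.7% of all transcript clusters called lower and 17.8% called higher. Replication genes had a median of -0.32, and 6 of 20 were called lower. The count of replication genes rested on single arrays, at 2 without Foxp3Cre replicate 3 or without Foxp3CreTgfbr2 f/f replicate 1, 3 without Foxp3Cre/+ replicate 3 and 10 without Foxp3Cre/+Lkb1f/f replicate 1, while that of mitosis genes ran from 15 to 22. This comparison takes the genotype as a covariate over all 12 arrays and was chosen after the values were seen. On values without centring, the median of all transcript clusters is 0.78 higher on these arrays. There the medians were -0.25 for mitosis and 0.46 for replication genes, so that the direction of the replication genes turns. Of 20 replication genes 0 were called lower and 12 higher, and of 24 mitosis genes 5 and 2. Of all 41345 transcript clusters 509 were called lower and 34604 higher there. The values below are relative to the array median.

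**Figure D1:**
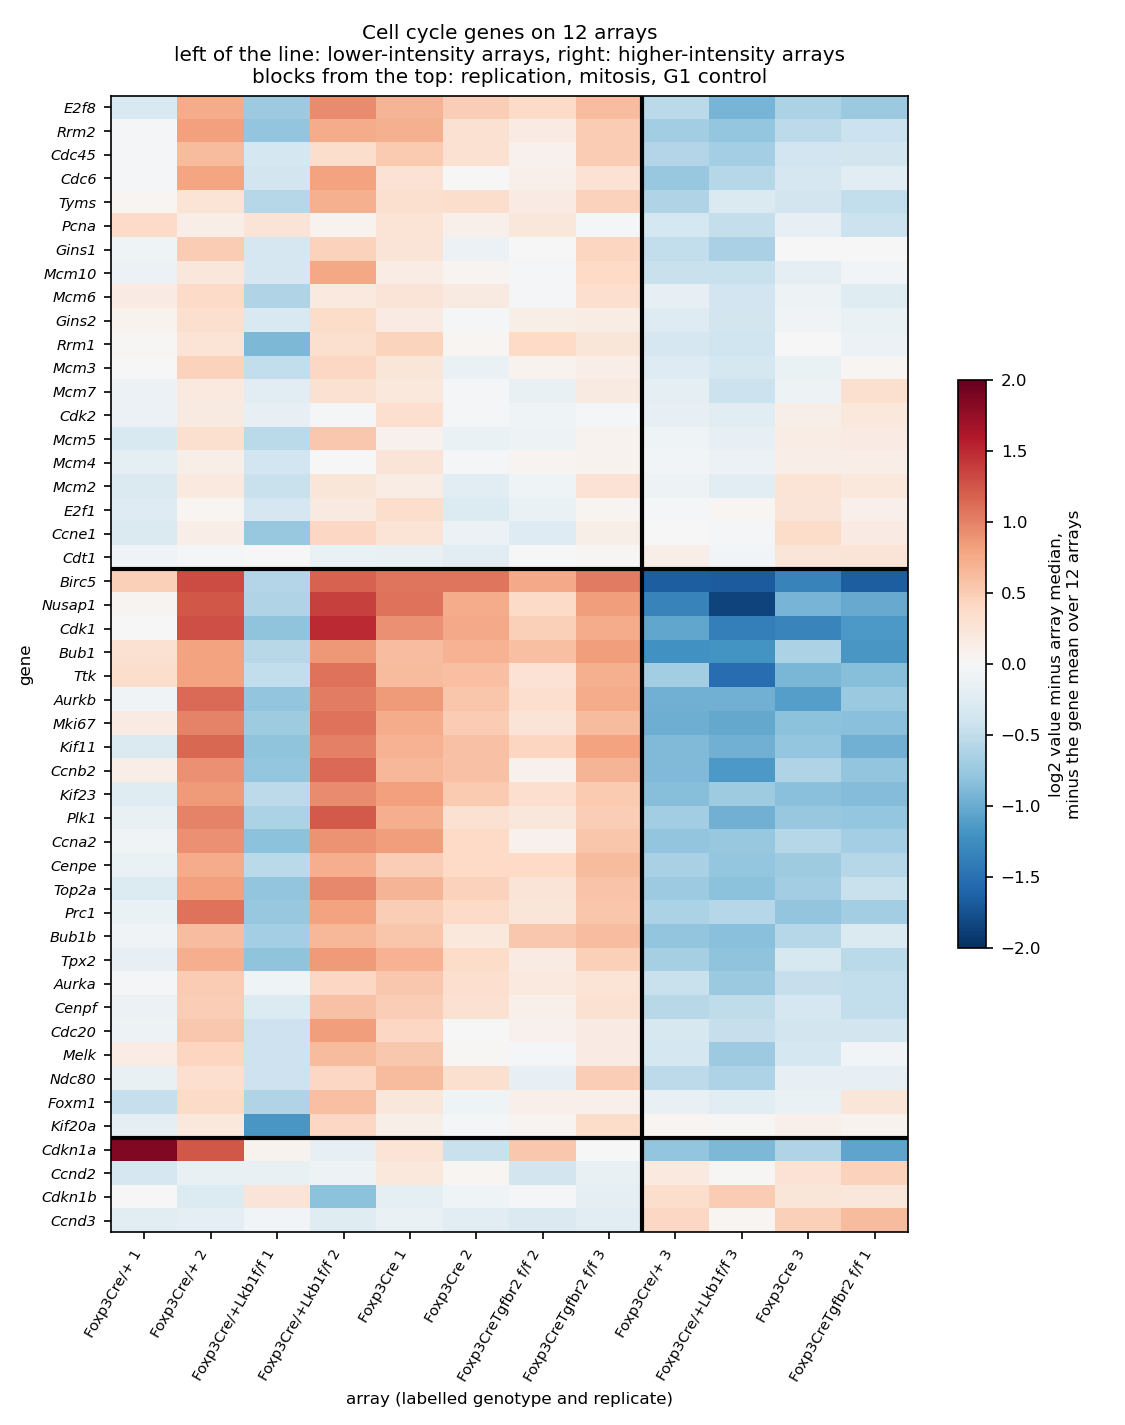
Each row is a gene and each column an array, and the colour is the log2 value minus the array median and minus the mean of that gene over the 12 arrays. Most mitosis genes are blue (low) on the 4 higher-intensity arrays and on Foxp3Cre/+Lkb1f/f replicate 1 (medians of -0.81 to -0.62), and red on replicate 2 of Foxp3Cre/+ and of Foxp3Cre/+Lkb1f/f (0.82 and 0.88).

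Among regulators and kinases of mitosis, Cdk1, the kinase that drives entry into mitosis, showed one of the widest gaps. In the order of replicates 1, 2 and 3, Cdk1 was at 2.19, 3.46 and 1.14 in Foxp3Cre/+, at 1.38, 3.68 and 0.81 in Foxp3Cre/+Lkb1f/f, at 3.10, 2.93 and 0.86 in Foxp3Cre and at 1.03, 2.66 and 2.92 in Foxp3CreTgfbr2 f/f. Every higher-intensity value, 0.81 to 1.14, lay below the lowest of the other arrays, 1.38, and the difference was -1.83 (95% interval -2.67 to -0.99, adjusted p = 0.005). Its cyclin partners Ccna2 and Ccnb2 differed by -1.05 and -1.28, both called, although Foxp3Cre/+Lkb1f/f replicate 1, at 1.30 for Ccna2 and 2.06 for Ccnb2, was as low as the higher-intensity arrays. Plk1, a kinase of spindle assembly and exit from mitosis, differed by -1.20, and Aurka and Aurkb, kinases of the spindle poles and of the centromeres, by -0.80 and -1.42.

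Mki67 encodes Ki-67, the coat protein of mitotic chromosomes that marks dividing cells. Mki67 was at 4.23, 5.04 and 3.08 in Foxp3Cre/+, at 3.34, 5.14 and 3.04 in Foxp3Cre/+Lkb1f/f, at 4.80, 4.57 and 3.24 in Foxp3Cre and at 3.22, 4.31 and 4.70 in Foxp3CreTgfbr2 f/f. The higher-intensity values spanned only 3.04 to 3.24, while the others spanned 3.34 to 5.14, and the difference was -1.37 (95% interval -2.02 to -0.72, adjusted p = 0.00571). Top2a, the topoisomerase that untangles chromosomes, was at 1.89, 2.98 and 1.43 in Foxp3Cre/+, at 1.36, 3.12 and 1.33 in Foxp3Cre/+Lkb1f/f, at 2.84, 2.62 and 1.47 in Foxp3Cre and at 1.71, 2.41 and 2.73 in Foxp3CreTgfbr2 f/f. It differed by -1.01 (95% interval -1.68 to -0.33, adjusted p = 0.0269), and here the low value of Foxp3Cre/+Lkb1f/f replicate 1 overlapped the higher-intensity arrays.

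Birc5 (survivin), the partner of Aurkb at the centromere, had the largest difference of the 48 genes, -2.36 (95% interval -3.01 to -1.71, adjusted p = 0.00049), with -0.44 to -0.12 on the higher-intensity arrays and 0.63 to 2.52 on the others. Of the spindle checkpoint genes, Bub1 differed by -1.57, Bub1b by -0.93 and Ttk, the kinase that starts the checkpoint, by -1.49. Ttk was at 0.99, 1.45 and -0.043 in Foxp3Cre/+, at 0.16, 1.73 and -0.87 in Foxp3Cre/+Lkb1f/f, at 1.27, 1.25 and -0.27 in Foxp3Cre and at -0.20, 0.94 and 1.36 in Foxp3CreTgfbr2 f/f. No higher-intensity value of Ttk reached the range of the others.

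Of the spindle and kinetochore genes, Nusap1, a protein that bundles microtubules, differed by -1.92, and the motors Kif11, Kif23 and Cenpe by -1.34, -1.22 and -1.01. Prc1, which organizes the midzone where Kif23 works, differed by -1.004, Tpx2, an activator of Aurora A, by -0.87, and Cenpf, a kinetochore protein, by -0.71. Ndc80, the microtubule anchor of the kinetochore, was at 1.63, 2.12 and 1.27 in Foxp3Cre/+, at 1.36, 2.20 and 1.16 in Foxp3Cre/+Lkb1f/f, at 2.42, 2.11 and 1.62 in Foxp3Cre and at 1.61, 1.62 and 2.28 in Foxp3CreTgfbr2 f/f. Its difference was -0.55 (95% interval -0.96 to -0.14, adjusted p = 0.0402), the smallest among the 20 mitosis genes called.

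The 4 mitosis genes that were not called were Cdc20, Melk, Foxm1 and Kif20a. Cdc20, the activator of the anaphase-promoting complex, and Melk, a kinase, had differences of -0.57 and -0.55 (adjusted p = 0.0623 and 0.0537). Foxm1, the transcription factor of many of these genes, was at 0.71, 1.55 and 1.01 in Foxp3Cre/+, at 0.56, 1.77 and 0.94 in Foxp3Cre/+Lkb1f/f, at 1.39, 1.08 and 1.04 in Foxp3Cre and at 1.40, 1.27 and 1.27 in Foxp3CreTgfbr2 f/f. The sets overlapped for Foxm1, with a difference of -0.10 (95% interval -0.60 to 0.40, adjusted p = 0.753). Kif20a, a motor of cytokinesis, was at 0.77, 1.17 and 0.99 in Foxp3Cre/+, at -0.21, 1.36 and 0.99 in Foxp3Cre/+Lkb1f/f, at 1.07, 0.92 and 1.06 in Foxp3Cre and at 1.02, 1.005 and 1.33 in Foxp3CreTgfbr2 f/f. The higher-intensity values of Kif20a, 0.99 to 1.06, lay inside the range of the others, and the difference was 0.089 (95% interval -0.47 to 0.64). Over the mitosis genes 11 of 24 had every higher-intensity value below every other value, against 12.3% of all transcript clusters, and none had them all above, against 11.4%.

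Of the replication genes 6 of 20 were called lower (30%), against 18.7% of all transcript clusters, a count that rested on single arrays as given above. Called were E2f8, an E2F factor that represses the others (-1.07), Rrm2 (-0.91), Cdc45, a part of the active helicase (-0.76), Cdc6 (-0.71), Tyms, the thymidylate synthase (-0.66), and Pcna (-0.54). Rrm2, the small subunit of ribonucleotide reductase, was at 0.997, 1.86 and 0.34 in Foxp3Cre/+, at 0.24, 1.77 and 0.26 in Foxp3Cre/+Lkb1f/f, at 1.75, 1.34 and 0.51 in Foxp3Cre and at 0.60, 1.20 and 1.54 in Foxp3CreTgfbr2 f/f. The higher-intensity arrays were low for Rrm2, but Foxp3Cre/+Lkb1f/f replicate 1 was as low. Pcna, the sliding clamp of the polymerases, was at 5.65, 5.40 and 4.91 in Foxp3Cre/+, at 5.52, 5.34 and 4.79 in Foxp3Cre/+Lkb1f/f, at 5.54, 5.37 and 5.11 in Foxp3Cre and at 4.83, 5.49 and 5.25 in Foxp3CreTgfbr2 f/f. For Pcna the sets did not overlap, with 4.79 to 5.11 against 5.25 to 5.65. Such a gap was found for 2 of the 20 replication genes, against 12.3% of all transcript clusters.

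Among the helicase genes no difference was called. Mcm2 was at 2.65, 3.13 and 2.83 in Foxp3Cre/+, at 2.48, 3.18 and 2.70 in Foxp3Cre/+Lkb1f/f, at 3.08, 2.73 and 3.21 in Foxp3Cre and at 3.14, 2.85 and 3.22 in Foxp3CreTgfbr2 f/f. Its range on the higher-intensity arrays, 2.70 to 3.21, lay inside that of the others, and the difference was 0.056 (95% interval -0.30 to 0.41, adjusted p = 0.811). Mcm4 was at 3.08, 3.38 and 3.21 in Foxp3Cre/+, at 2.89, 3.25 and 3.15 in Foxp3Cre/+Lkb1f/f, at 3.52, 3.24 and 3.40 in Foxp3Cre and at 3.39, 3.32 and 3.33 in Foxp3CreTgfbr2 f/f. The difference of Mcm4 was 0.034 (95% interval -0.19 to 0.25), that of Mcm5 0.024 (95% interval -0.41 to 0.46) and that of Mcm7 -0.15 (95% interval -0.48 to 0.18). Mcm3 was at 2.63, 3.10 and 2.39 in Foxp3Cre/+, at 2.15, 3.06 and 2.29 in Foxp3Cre/+Lkb1f/f, at 2.88, 2.51 and 2.51 in Foxp3Cre and at 2.68, 2.71 and 2.77 in Foxp3CreTgfbr2 f/f, and differed by -0.26. Mcm6 was at 4.05, 4.27 and 3.72 in Foxp3Cre/+, at 3.28, 4.09 and 3.51 in Foxp3Cre/+Lkb1f/f, at 4.14, 4.07 and 3.78 in Foxp3Cre and at 3.65, 3.87 and 4.22 in Foxp3CreTgfbr2 f/f. It differed by -0.33 (95% interval -0.66 to -0.012, adjusted p = 0.0964 from limma). The intervals of Mcm2, Mcm4 and Mcm5 leave out a difference as large as the median of the mitosis genes.

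Other replication genes gave values between these. Mcm10, a factor that activates the helicase, and Gins1 and Gins2, subunits of the GINS complex, had differences of -0.42, -0.42 and -0.32, none called. Rrm1, the large subunit of ribonucleotide reductase, was at 1.80, 2.05 and 1.45 in Foxp3Cre/+, at 0.88, 2.10 and 1.38 in Foxp3Cre/+Lkb1f/f, at 2.22, 1.82 and 1.79 in Foxp3Cre and at 1.67, 2.18 and 2.02 in Foxp3CreTgfbr2 f/f. Rrm1 differed by -0.31 (adjusted p = 0.243), and its lowest value was that of Foxp3Cre/+Lkb1f/f replicate 1. Cdk2, the kinase of S phase, differed by -0.021 (95% interval -0.26 to 0.22).

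No difference was called for the regulators that act at the start of replication. E2f1, the activating E2F factor, was at 0.87, 1.18 and 1.11 in Foxp3Cre/+, at 0.81, 1.32 and 1.18 in Foxp3Cre/+Lkb1f/f, at 1.49, 0.87 and 1.40 in Foxp3Cre and at 1.24, 1.01 and 1.19 in Foxp3CreTgfbr2 f/f. Ccne1, cyclin E1, was at 1.31, 1.73 and 1.60 in Foxp3Cre/+, at 0.85, 2.02 and 1.57 in Foxp3Cre/+Lkb1f/f, at 1.88, 1.497 and 1.98 in Foxp3Cre and at 1.78, 1.34 and 1.73 in Foxp3CreTgfbr2 f/f. Cdt1, the loader of the helicase, was at 1.44, 1.48 and 1.64 in Foxp3Cre/+, at 1.49, 1.37 and 1.45 in Foxp3Cre/+Lkb1f/f, at 1.35, 1.29 and 1.75 in Foxp3Cre and at 1.77, 1.49 and 1.52 in Foxp3CreTgfbr2 f/f. The differences were 0.14 for E2f1, 0.19 for Ccne1 and 0.22 for Cdt1 (adjusted p = 0.0553).

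**Figure D2:**
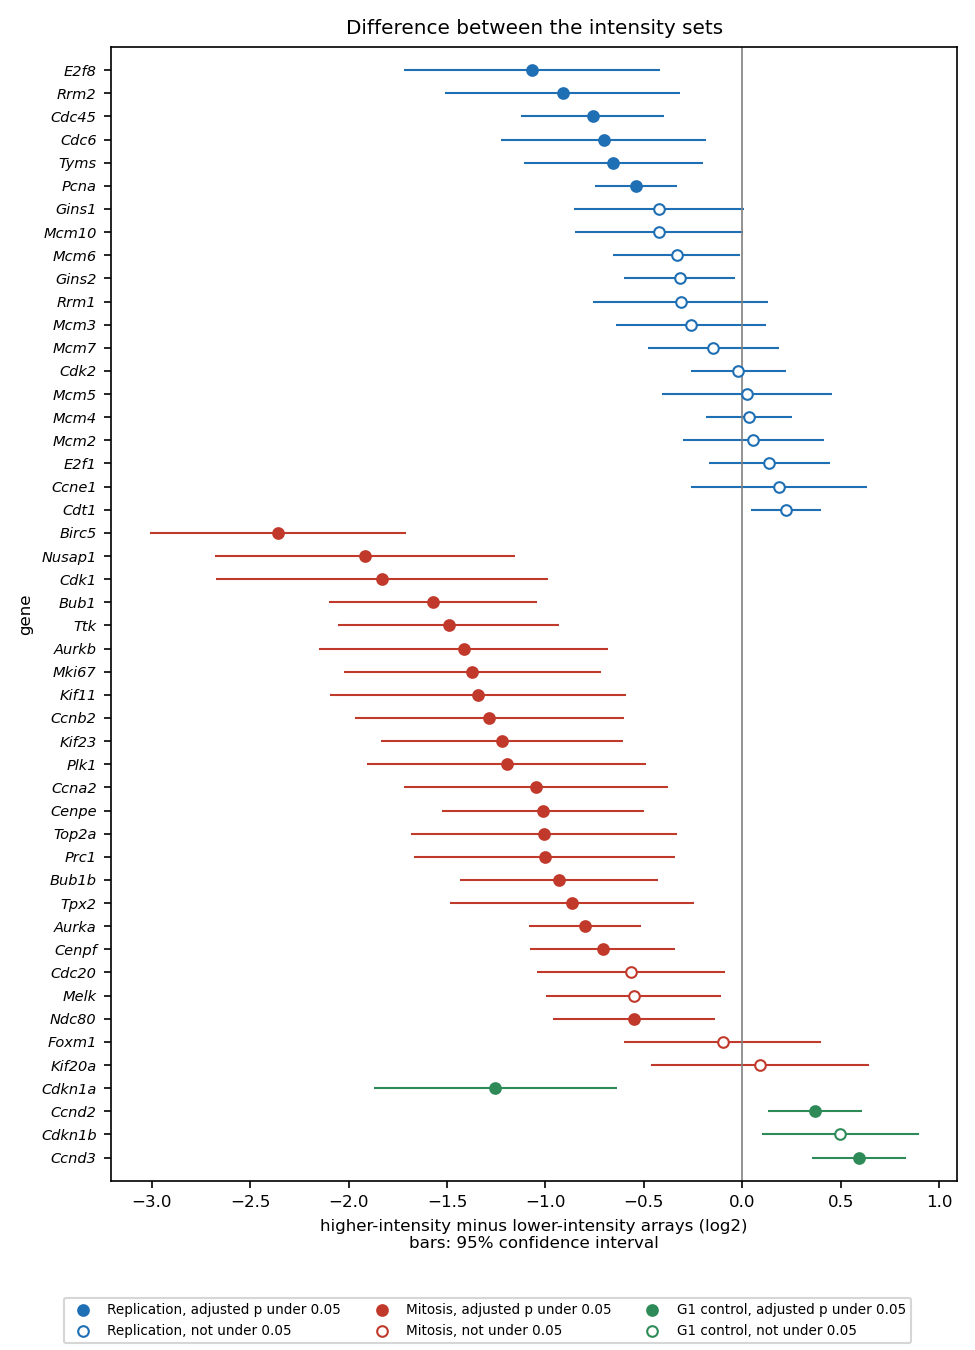
The x axis is the difference between the 4 higher-intensity and the 8 lower-intensity arrays on the log2 scale with its 95% confidence interval, from limma with the genotype as a covariate. Birc5, Nusap1 and Cdk1 lie farthest to the left, and Mcm5, Mcm4 and Mcm2 lie near 0.

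The G1 control genes split. Cdkn1a, the p21 inhibitor, was at 4.09, 3.49 and 1.45 in Foxp3Cre/+, at 2.31, 2.07 and 1.35 in Foxp3Cre/+Lkb1f/f, at 2.52, 1.80 and 1.65 in Foxp3Cre and at 1.18, 2.78 and 2.24 in Foxp3CreTgfbr2 f/f. All higher-intensity values of Cdkn1a, 1.18 to 1.65, lay below all the others, with a difference of -1.26 (95% interval -1.87 to -0.64, adjusted p = 0.00672). Ccnd3, cyclin D3, was at 3.25, 3.28 and 3.89 in Foxp3Cre/+, at 3.43, 3.24 and 3.53 in Foxp3Cre/+Lkb1f/f, at 3.34, 3.28 and 3.96 in Foxp3Cre and at 4.12, 3.19 and 3.25 in Foxp3CreTgfbr2 f/f. Here every higher-intensity value lay above all the others, with a difference of 0.59 (adjusted p = 0.00268). Ccnd2, cyclin D2, was at 5.23, 5.43 and 5.77 in Foxp3Cre/+, at 5.43, 5.47 and 5.60 in Foxp3Cre/+Lkb1f/f, at 5.79, 5.61 and 5.87 in Foxp3Cre and at 6.03, 5.20 and 5.43 in Foxp3CreTgfbr2 f/f. It was higher by 0.37 (adjusted p = 0.0238) on the higher-intensity arrays, with overlap. Cdkn1b, the p27 inhibitor, was at 2.78, 2.51 and 3.13 in Foxp3Cre/+, at 3.05, 1.97 and 3.31 in Foxp3Cre/+Lkb1f/f, at 2.61, 2.70 and 3.03 in Foxp3Cre and at 3.02, 2.75 and 2.61 in Foxp3CreTgfbr2 f/f, and its difference of 0.50 was not called (adjusted p = 0.0514).

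The median difference of each class had the same direction under each genotype label. Between the higher-intensity array and the mean of the other 2, the median difference over the mitosis genes was -1.12 in Foxp3Cre/+, -0.91 in Foxp3Cre/+Lkb1f/f, -1.23 in Foxp3Cre and -1.09 in Foxp3CreTgfbr2 f/f, with 23 of 24 genes lower each time. The replication genes gave -0.47, -0.34, -0.19 and -0.23, with 17, 16, 14 and 12 of 20 genes lower in the same order. No share of all transcript clusters is given for these counts. The other genes of these pathways, listed apart, had medians in the same direction: 27 of 39 further mitosis genes (69.2%, median -0.87) were called lower and none higher. Of 27 further replication genes 7 were called lower (25.9%) and 1 higher (3.7%), with a median of -0.23, a share of lower calls near the 18.7% of all transcript clusters. Examples, chosen after their values were seen, are Hmmr (-1.67), a spindle protein, and the kinesin Kif15 (-1.53), against Fen1 (-0.021), the flap endonuclease, and Gins4 (0.027). Both lists also held the reverse. Asf1b (-1.16) and Gmnn (-0.997) of the further replication genes were called lower, while Smc4 (0.016) and Pttg1 (-0.023) of the further mitosis genes were not called. Of 23 further G1 control genes 2 were called lower and 2 higher (8.7% each, against 18.7% and 17.8% of all transcript clusters).

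Several measures moved with the sets. They cannot be told apart from the sex mismatch, which lies on the same 4 arrays. B cell and neutrophil markers were higher on these arrays as given above (median difference 0.95 and 1.56), and macrophage markers lower (-1.02). Of B cell markers 5 of 7 and of neutrophil markers 4 of 7 were called higher, against 17.8% of all transcript clusters. Of macrophage markers 2 of 9 were called lower, against 18.7%. On the higher-intensity arrays B cell markers averaged 1.60 and 0.53 in the Lkb1 experiment and -0.27 and -0.21 in the Tgfbr2 experiment. Of the NK cell markers 2 of 3 were called higher, with Eomes at 0.96 (adjusted p = 0.00425), and of the CD8 T cell markers 1 of 2, Cd8a at 0.74 (adjusted p = 0.00564). Of the 7 Treg markers Cd4 (0.76, adjusted p = 0.00138) and Ikzf2 (0.55, adjusted p = 0.0177) were called higher, with no overlap of the sets. The part of other cells in the differences was not tested. Among the 20626 transcript clusters with a mean above the array median, as all 48 members are, 11.3% were called lower and the median difference was 0.093.

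Within a set the arrays also differed. The median deviation of the mitosis genes from their means ran from -0.81 to -0.66 on the 4 higher-intensity arrays and from -0.62 to 0.88 on the 8 others. Between the 2 lower-intensity arrays of Foxp3Cre/+Lkb1f/f, replicate 2 was above replicate 1 in 24 of 24 mitosis genes (median 1.57) and 18 of 20 replication genes (median 0.80). In Foxp3Cre/+ replicate 2 was above replicate 1 in 24 of 24 mitosis genes (median 0.84) and 19 of 20 replication genes (median 0.33). Over all transcript clusters, replicate 2 was above replicate 1 in 43.8% and 49.9%. In the experiment labelled Tgfbr2 the gaps were smaller, with medians of -0.23 between Foxp3Cre replicates 2 and 1 and 0.29 between Foxp3CreTgfbr2 f/f replicates 3 and 2 for the mitosis genes. Macrophage and plasma cell markers averaged higher on replicate 2 than on replicate 1 in both genotypes of the Lkb1 experiment. Those of plasma cells averaged -0.21 and 0.099 on replicates 1 and 2 of Foxp3Cre/+ and -0.30 and 0.019 on those of Foxp3Cre/+Lkb1f/f. Among them Jchain rose most, from -0.27 to 1.76 and from -0.90 to 0.41. Sdc1 and Derl3 were lower on replicate 2 of Foxp3Cre/+, and Eaf2 on that of Foxp3Cre/+Lkb1f/f. Of the macrophage markers Mertk and Hmox1 were lower on replicate 2 of Foxp3Cre/+Lkb1f/f. Erythroblast markers averaged -0.081 and -0.16 in the first genotype and -0.22 and 0.13 in the second. The part of these cells was not tested.

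**Figure D3:**
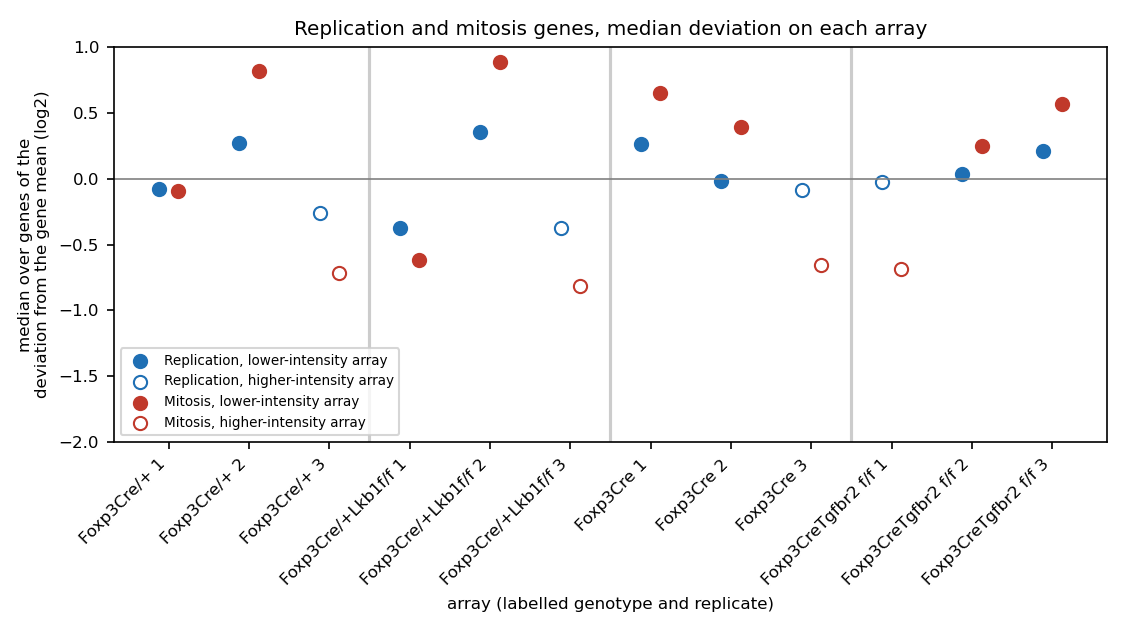
The y axis is the median over 20 replication or 24 mitosis genes of the deviation from the mean of each gene over 12 arrays (log2), and each column on the x axis is an array. The mitosis medians of the higher-intensity arrays (open symbols) lie between -0.81 and -0.66, and those of the Lkb1 experiment's lower-intensity arrays range from -0.62 to 0.88.

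The first question of the design is what loss of Lkb1 does to these genes. In Foxp3Cre/+Lkb1f/f against Foxp3Cre/+, no member was called by limma at an adjusted p under 0.05 (0 of 48), as no transcript cluster was (0% of 41345). Of the mitosis genes 24 of 24 had a lower mean in Foxp3Cre/+Lkb1f/f, with a median of -0.24 against a median standard error of 0.58, and of the replication genes 17 of 20, with a median of -0.097. Over all transcript clusters 53.1% were lower. No member reached an unadjusted p under 0.05 in limma, against 0.697% of all transcript clusters lower and 0.421% higher. In the methods' t-test no member did either, against 675 of the 41345 transcript clusters. None of the 48 genes had groups that did not overlap, against 2.05% lower and 1.76% higher.

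Within the lower-intensity arrays the medians were -0.27 for mitosis, with 23 of 24 lower, and -0.12 for replication, with 17 of 20 lower, and no member or transcript cluster was called (0%). Over all arrays the direction of the medians turned on single arrays. Without Foxp3Cre/+ replicate 2 the median of the mitosis genes turned to 0.20, without Foxp3Cre/+Lkb1f/f replicate 3 to 0.12 and without Foxp3Cre/+Lkb1f/f replicate 1 to 0.0043, and without Foxp3Cre/+Lkb1f/f replicate 2 it was -0.77. That of the replication genes ran from -0.34 to 0.042 when each array was left out.

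The member with the largest statistic was Cdkn1a, whose 12 values stand above. Its means were 3.01 ± 1.38 in Foxp3Cre/+ and 1.91 ± 0.50 in Foxp3Cre/+Lkb1f/f (SD, n = 3), a difference of -1.10 (95% interval -2.68 to 0.48, adjusted p = 1 from limma, two-sided exact permutation p = 0.3, where 0.1 is the smallest that 3 against 3 arrays allow). Both lower-intensity Foxp3Cre/+ values, 4.09 and 3.49, lay above both Foxp3Cre/+Lkb1f/f values, 2.31 and 2.07, a difference of -1.60 (unadjusted p = 0.00203, adjusted p = 1 from limma), and the higher-intensity pair differed by -0.10. When the set entered as a block, the unadjusted p of Cdkn1a was 0.021 and the adjusted p 1, and it was the only member under 0.05 there, against 1.76% of all transcript clusters lower and 1.36% higher. The macrophage markers were highest on the same 2 Foxp3Cre/+ arrays, at 2.11 on replicate 1 and 4.39 on replicate 2. Cdkn1a was at 4.09 and 3.49 on these arrays in the same order. Their part was not tested.

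After Cdkn1a came Mcm6 (-0.39, 95% interval -1.02 to 0.24), Rrm1 (-0.31, 95% interval -1.11 to 0.48), Mcm4 (-0.13, 95% interval -0.56 to 0.31) and Ttk (-0.46, 95% interval -2.09 to 1.16), all at an adjusted p of 1. Mki67 differed by -0.28 (95% interval -1.89 to 1.33) and Cdk1 by -0.31 (95% interval -2.33 to 1.72), intervals that hold both a halving and a doubling. Over the lower-intensity arrays the differences were -0.48 for Mcm6, -0.44 for Rrm1, -0.16 for Mcm4, -0.28 for Ttk, -0.40 for Mki67 and -0.30 for Cdk1. Narrower intervals over all arrays were those of Mcm4, Cdt1 (-0.084, 95% interval -0.46 to 0.29) and Ccnd2 (0.023, 95% interval -0.44 to 0.49).

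**Figure D4:**
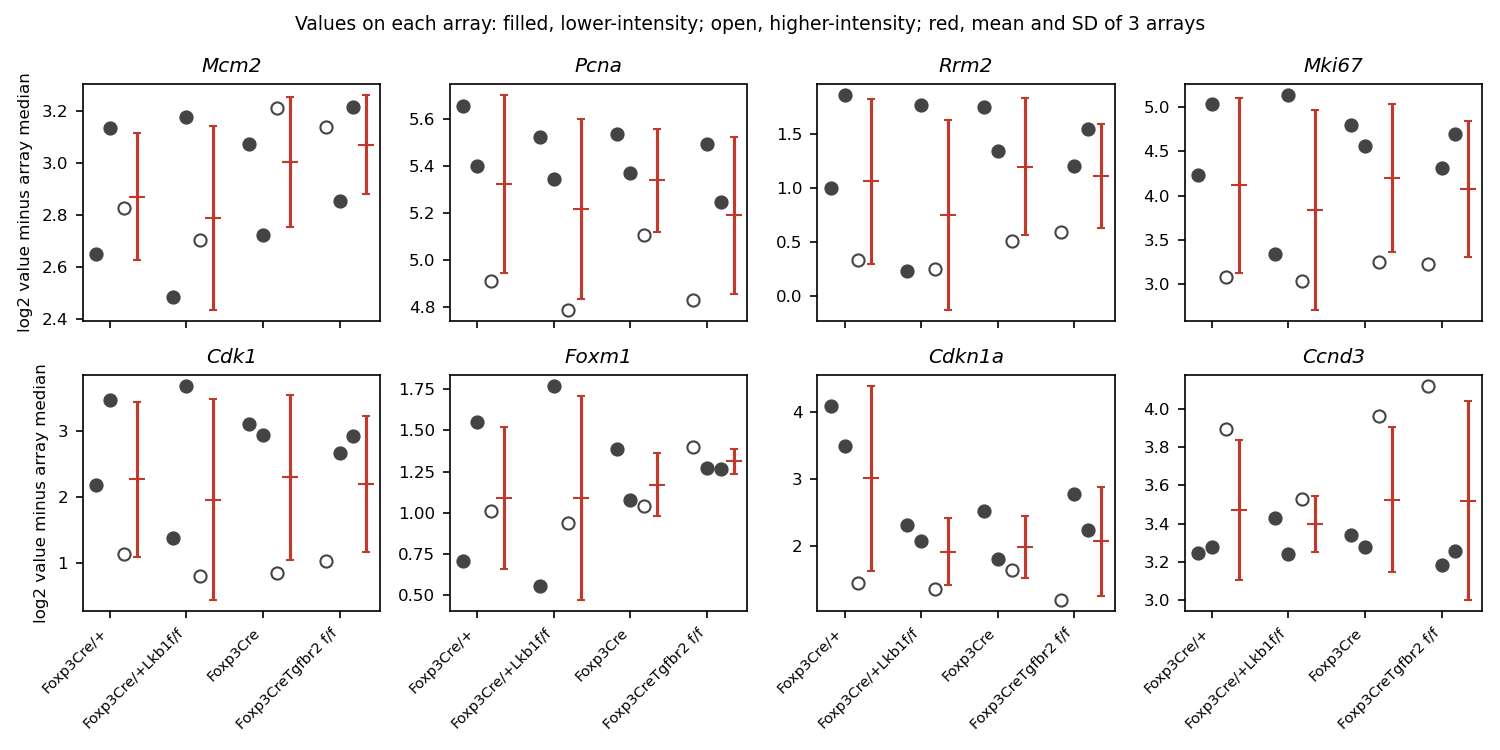
The y axis is the log2 value minus the array median and the x axis the labelled genotype, with replicates 1 to 3 from left to right. Filled points are lower-intensity and open points higher-intensity arrays, and red bars are the mean and SD of 3 arrays. The open points of Cdk1, Mki67, Pcna and Cdkn1a lie below all filled points, those of Ccnd3 above, and those of Mcm2 among them.

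For loss of TGF-βR2, the comparison of Foxp3CreTgfbr2 f/f with Foxp3Cre also called no member (0 of 48) and no transcript cluster (0%). Mitosis genes had a median of -0.10, 18 of 24 lower, and replication genes a median of -0.013, 10 of 20 lower, while 46.9% of all transcript clusters were lower. No member reached an unadjusted p under 0.05 in limma, against 0.614% of all transcript clusters lower and 1.09% higher. In the methods' t-test no member did either, against 902 transcript clusters. None had groups that did not overlap, against 2.13% lower and 2.81% higher. When the set entered as a block, no member reached an unadjusted p under 0.05 either, against 2.07% lower and 3% higher. The direction of the mitosis median turned on single arrays, at 0.18 without Foxp3Cre replicate 1, 0.053 without Foxp3Cre replicate 2, 0.27 without Foxp3CreTgfbr2 f/f replicate 1 and -0.51 without Foxp3Cre replicate 3. That of the replication genes ran from -0.049 to 0.099. Within the lower-intensity arrays the medians were -0.17 for mitosis and -0.035 for replication, with no call among the members or all transcript clusters (0%).

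The largest statistics were those of Foxm1 (0.14, 95% interval -0.21 to 0.50), Ccnd2 (-0.21, 95% interval -0.75 to 0.34), Ccne1 (-0.17, 95% interval -0.63 to 0.29), Ndc80 (-0.21, 95% interval -0.86 to 0.43) and Cdt1 (0.13, 95% interval -0.29 to 0.55), each at an adjusted p of 1. Over the lower-intensity arrays they were 0.035, -0.39, -0.15, -0.32 and 0.18 in the same order. Mki67 differed by -0.13 (95% interval -1.34 to 1.09). Its lower-intensity values, 4.80 and 4.57 against 4.31 and 4.70, overlapped. Cdkn1a, at 1.99 ± 0.47 and 2.07 ± 0.81 (SD, n = 3), differed by 0.082 (95% interval -0.93 to 1.10).

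**Figure D5:**
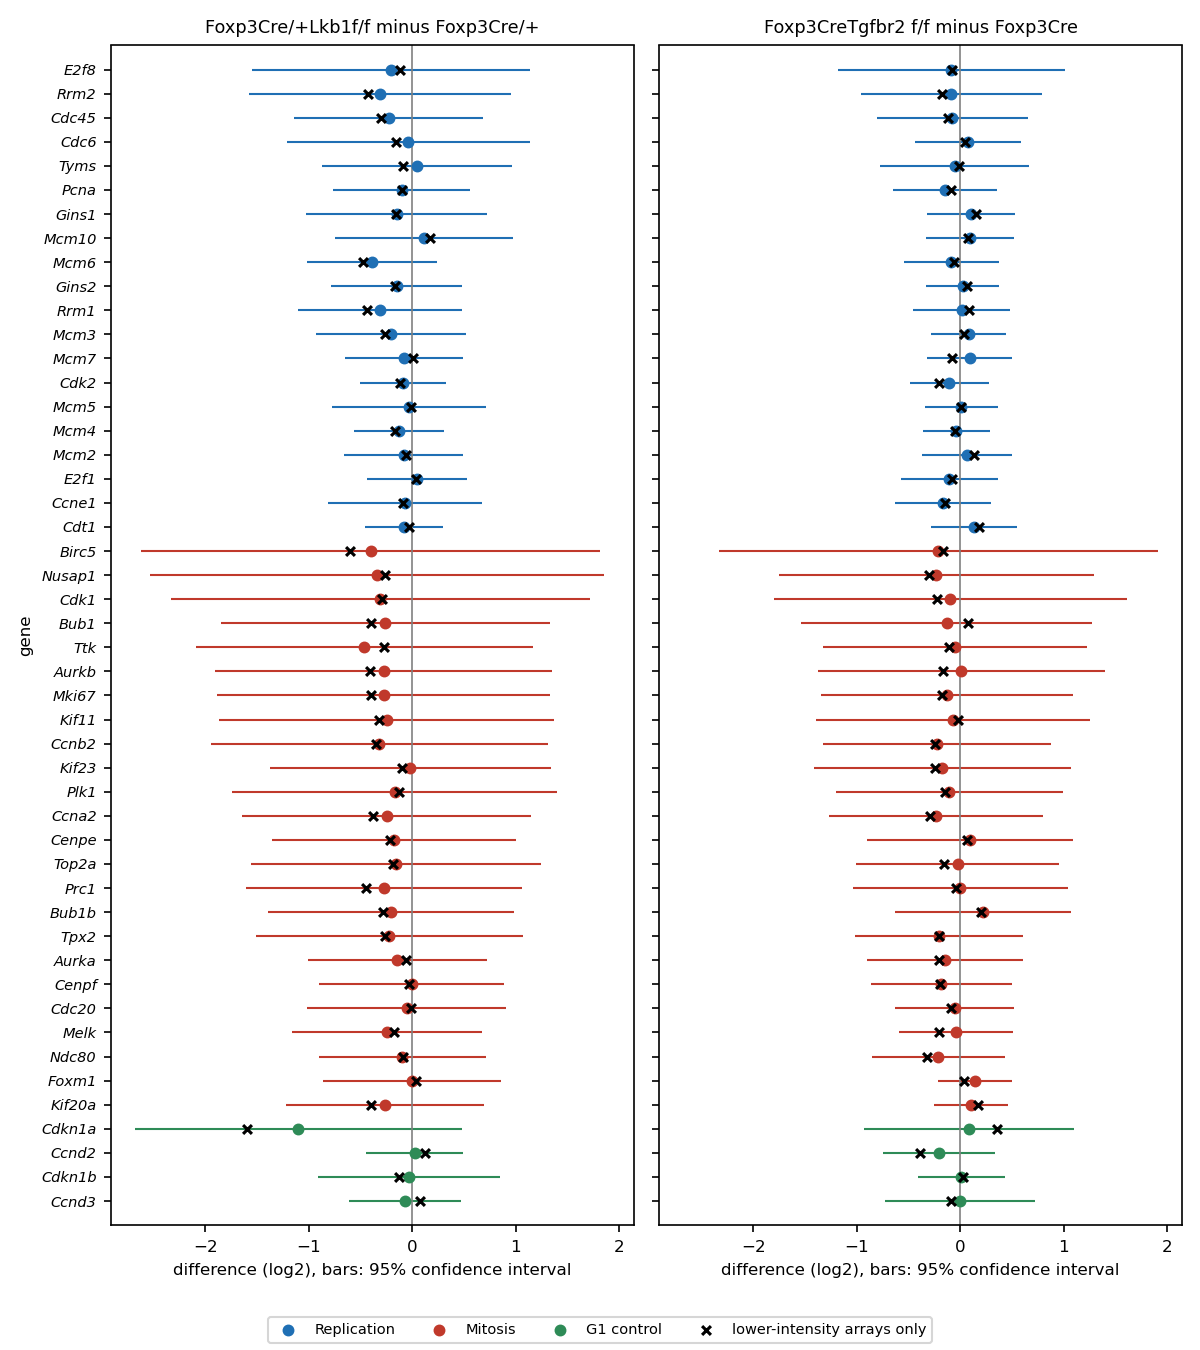
The x axis is the difference of each knockout from its control on the log2 scale with its 95% confidence interval from limma (n = 3 arrays per genotype), and crosses give the difference over the lower-intensity arrays. All 48 intervals include 0 in both panels, and the interval of Cdkn1a in the Lkb1 comparison, -2.68 to 0.48, is centred farthest from 0.

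The difference between the knockout effects, tested over 12 arrays, was called for no member and no transcript cluster (0%), and 0 members and 406 transcript clusters had an unadjusted p under 0.05 in limma. By the size of the statistic it was led by Cdkn1a (-1.18, 95% interval -3.11 to 0.74), followed by Cdt1, Mcm6, Kif20a and Mcm3, all at an adjusted p of 1. Over all and over the lower-intensity arrays these were -0.21 and -0.22 for Cdt1, -0.30 and -0.41 for Mcm6, -0.37 and -0.57 for Kif20a and -0.28 and -0.30 for Mcm3. Over the lower-intensity arrays that of Cdkn1a was -1.95 (unadjusted p = 0.00375, adjusted p = 0.679 from limma) and over the higher-intensity arrays 0.36. The control genotypes, Foxp3Cre against Foxp3Cre/+, which differ in labelled sex and in the intact Foxp3 allele that Foxp3Cre/+ also carries, gave no call either (0%), with 0 members and 733 transcript clusters at an unadjusted p under 0.05. Mitosis genes had a median of 0.14 there and replication genes of 0.13, against 0.15 and 0.057 over the lower-intensity arrays. Cdkn1a differed by -1.02 (95% interval -2.56 to 0.52) over all arrays and -1.63 over the lower-intensity arrays (unadjusted p = 0.00503, adjusted p = 0.486 from limma). No member of the controls had groups that did not overlap, against 2.37% of all transcript clusters lower and 3.23% higher. This comparison shares its control arrays with both knockout comparisons.

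The further genes of these pathways, 27 of replication, 39 of mitosis and 23 of G1 control that were measured, gave no call at an adjusted p under 0.05 in either knockout comparison. In the Lkb1 comparison 23 of 27 replication, 32 of 39 mitosis and 17 of 23 G1 control genes had lower means in Foxp3Cre/+Lkb1f/f. The extremes, given as the difference over all arrays and that over the lower-intensity arrays, were Tk1 (-0.29 and -0.42) and Chaf1b (-0.28 and -0.27) against Wdhd1 (0.029 and 0.031) and Pold1 (0.081 and 0.15) in replication, and Racgap1 (-0.40 and -0.49) and Aspm (-0.37 and -0.62) against Dlgap5 (0.15 and 0.21) and Ckap2l (0.16 and 0.18) in mitosis. Among G1 control genes Cdk6, the kinase partner of the D-type cyclins, was at 3.13, 3.27 and 3.27 in Foxp3Cre/+, at 2.69, 2.47 and 3.01 in Foxp3Cre/+Lkb1f/f, at 3.23, 2.96 and 2.88 in Foxp3Cre and at 3.31, 2.77 and 2.88 in Foxp3CreTgfbr2 f/f. All Foxp3Cre/+Lkb1f/f values of Cdk6 lay below those of Foxp3Cre/+ (-0.50, 95% interval -0.96 to -0.038, unadjusted p = 0.0376, adjusted p = 1 from limma). The difference was -0.62 over the lower-intensity arrays and -0.26 between the single higher-intensity arrays. Cdk6 was the only 1 of the 23 G1 control genes with such a gap, against 2.05% of all transcript clusters lower. Of the 27 further replication genes 1 had it too, Fen1, and of the 39 further mitosis genes 0. Among the 23 G1 control genes Cdk6 was also the only 1 with an unadjusted p under 0.05 in limma, against 0.697% lower. The other extremes were Btg2 (-0.38 and -0.52), Klf2 (0.086 and 0.53) and Cdkn1c (0.10 and 0.12).

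In the Tgfbr2 comparison 13 of 27 further replication, 26 of 39 mitosis and 18 of 23 G1 control genes had lower means in Foxp3CreTgfbr2 f/f. In the same order of values, Asf1b (-0.19 and -0.18) and Dbf4 (-0.17 and -0.12) stood at one end of replication and Chaf1b (0.17 and 0.17) and Tk1 (0.34 and 0.23) at the other, and in mitosis Ckap2l (-0.34 and -0.38) and Pbk (-0.33 and -0.58) against Kif2c (0.23 and 0.18) and Cenpk (0.29 and -0.030), whose sign turned. Btg1, an antiproliferative gene of resting lymphocytes, was at 3.31 to 3.75 in Foxp3Cre and at 2.80 to 3.44 in Foxp3CreTgfbr2 f/f. It differed by -0.51 (95% interval -1.02 to -0.0023, unadjusted p = 0.0492, adjusted p = 1 from limma), with overlap of the groups. No other of the 23 had an unadjusted p under 0.05 in limma, against 0.614% of all transcript clusters lower and 1.09% higher. Over the lower-intensity arrays Btg1 differed by -0.59. Klf2, a factor of T cell quiescence and homing, followed at -0.49 and -0.66, and Rbl2 (0.14 and 0.22) and Mdm2 (0.22 and 0.30) stood at the other end.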

How the data were processed

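RNA of sorted CD4+YFP+ Treg cells was extracted with Trizol, labelled and hybridized to Affymetrix mouse arrays, and analysed by the authors with GeneSpring. The deposited log2 values, 1 per transcript cluster and array, were made by the authors, but how they were background-corrected, summarized and normalized is not stated in the labels or methods.

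Each array's median was subtracted. Knockouts were compared with their own control (3 against 3 arrays) in limma 3.58.1 under R 4.3.3, and p-values were adjusted by the Benjamini-Hochberg method across the whole table of 41345 rows, with calls made under 0.05. The difference between knockout effects was fitted over 12 arrays, and so was the difference between intensity sets, with genotype as a covariate. Intervals are 95% intervals, whose width is set by the few arrays. The labels call the arrays biological replicates without naming mice, so p-values measure the spread between these arrays. The fits were tested on simulated data: of 100 rows raised by 1 (log2), 14% were called in the Lkb1 and 31% in the Tgfbr2 comparison, and of 100 raised by 4, 88% and 99%. Of 100 lowered by 1 between the intensity sets 63% were called. The changed rows were picked at random from all transcript clusters and varied independently. These shares therefore do not say how many members would be called.

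Gene symbols came from the platform annotation, in which 23521 transcript clusters have 1 symbol, 1820 several and 16004 none. Members and gene lists were chosen with earlier results of these data known. Every array is given for a fixed set of members and for the 5 members with the largest statistic in each knockout comparison and in their difference, and the extremes of each further list are named. Promoter windows came from RefSeq. Same-numbered arrays correlated in their deviations at 0.388, 0.299 and 0.736 in the Lkb1 experiment, where they share an intensity set. Control replicate 1 correlated more with knockout replicate 2 there (0.452). In the Tgfbr2 experiment same-numbered arrays correlated at -0.519, 0.233 and -0.574 and share only a number. A replicate block was fitted as an alternative in every comparison, so also where arrays share only a number.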

Additional observations from a re-analysis of the deposited data

How the results depend on the processing

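No member was called in either knockout comparison, in their difference or between the controls under any alternative by adjusted p. These alternatives were no centring, quantile normalization, the intensity set as a block, lower-intensity arrays alone, a replicate block, all 12 arrays in 1 model, another variance prior, array weights, a filter on low values, the mean over rows of a gene, and each array left out. With the replicate block 0 members were called, and the block changed no call. The methods' t-test, unadjusted, called 0 members and 675 and 902 transcript clusters in the Lkb1 and Tgfbr2 comparisons, against 462 and 706 at an unadjusted p under 0.05 in limma. Leaving out each array moved the median difference of the mitosis genes from -0.77 to 0.20 (Lkb1) and from -0.51 to 0.27 (Tgfbr2), and that of the replication genes from -0.34 to 0.042 and from -0.049 to 0.099. Array weights gave -0.90 and -0.43 for Lkb1. The difference between intensity sets, and its alternatives, were chosen after seeing the data. On values as deposited its median was 0.46 for replication genes, in the opposite direction, with 0 called lower and 12 higher. For mitosis genes it was -0.25, with 5 called lower and 2 higher. Of all 41345 transcript clusters 509 were called lower and 34604 higher there. The turn of direction follows from the construction, since the median of all transcript clusters then differs by 0.78. Quantile normalization gave -0.42 and -1.14, with 6 and 20 called lower, against 5520 of all transcript clusters. Leaving out each array, 2 to 10 replication and 15 to 22 mitosis genes were called. Of 1155 values of single genes under alternatives 136 changed sign, and 0 passed the adjusted threshold.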
